A study of Beta vulgaris with 6 samples.

Results

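Circular RNAs (circRNAs) are closed loops that form when a downstream splice site of a transcript is joined back to an upstream one. The loop has no free ends, which makes it resistant to exonucleases, and the back-splice junction is what identifies it in sequencing reads. In plants circRNAs arise from exons, introns and intergenic transcripts, and for most of them no function is known. The circRNAs described here were found repeatedly in leaves of drought-stressed sugar beet and in no library from well-watered leaves. They were chosen by their read counts: 0 reads in each of the 3 well-watered libraries and a count above 0 in at least 2 of the 3 drought libraries. Of the 563 circRNAs listed, 99 met this rule (17.6%).

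The leaves came from Beta vulgaris seedlings of genotype KWS9147, which was shared by both groups. Drought-stressed seedlings gave 3 libraries and well-watered seedlings gave 3 libraries, and the labels give no length or severity of the drought and no plant age. Replicates 1, 2 and 3 gave 8586, 12354 and 5731 circRNA reads under drought and 4357, 5168 and 3770 in well-watered leaves. Every drought library thus had more listed circRNA reads than every well-watered library. The drought reads summed to 2.01 times the well-watered reads (26671 against 13295). Depth below means this sum of listed circRNA reads. The total reads sequenced per library are not given, so deeper sequencing and more circRNA under drought cannot be told apart. No count of 1 is listed in any library, so a listed 0 can stand for 0 or 1 reads. The table names no gene, so the leaf label could not be checked against marker genes and no host gene is named. These were bulk samples, in which fewer cells of a type and less RNA per cell cannot be told apart.

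Since the rule fixed both the presence under drought and the absence in well-watered leaves, neither is a finding, and the values that follow describe the 99 circRNAs. Together they had 1394 reads under drought. Their share of the listed circRNA reads was 5.56%, 4.82% and 5.62% in drought replicates 1, 2 and 3. The mean was 5.33% ± 0.446 (SD, n = 3), against 0 reads in each well-watered library. The TPM values deposited beside the counts imply larger totals, of 12205, 17019 and 8021 in drought replicates 1, 2 and 3. What the unlisted remainder is was not stated, and on those totals the mean joint share was 3.81%. The 3 drought libraries thus gave these circRNAs nearly the same joint share, although the libraries differed in depth and in which of the 99 they listed. By number they were a larger part of the drought libraries, at 24.9%, 23.4% and 28.4% of all circRNAs listed in replicates 1, 2 and 3. The 39 circRNAs found in all 6 libraries took 81.9% ± 0.840 of the drought reads (SD, n = 3).

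Most of the 99 were rare. Their reads summed over the drought libraries ran from 4 to 157, with a median of 10 and quartiles of 7 and 15. The median of the mean drought share was 0.0388% of a library, and the range was 0.0159% to 0.605%. In all, 43 had fewer than 10 reads, 15 had at least 20 and 4 had at least 30. The upper end was steep: novel_circ_0000301 alone gave 11.3% of the reads of the 99, and the 4 most abundant gave 22.1%. These 4 were also the only ones of the 99 among the 50 circRNAs with the highest mean share under drought, out of 518 listed there.

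Reads in all 3 drought libraries were found for 18 of the 99. Counts in which every drought library exceeds every well-watered library occurred in 7.28% of all 563 circRNAs, and for these 18 the choice of members fixed that order. The 18 held 40.7% of the reads of the 99 and had a median of 20.5 reads each.

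The most abundant was novel_circ_0000301, with 61, 61 and 35 reads in drought replicates 1, 2 and 3 and 0 in each well-watered library. Its shares under drought were 0.710%, 0.494% and 0.611%, and the mean was 0.605% ± 0.108 (SD, n = 3). The drought libraries lay close together, and the highest share was 1.44 times the lowest. A share of 0.605% is 8.79 times the mean share that 3 reads per well-watered library stand for (0.0688%). That floor of 3 reads is what a true count of 0 allows in 1 library. Because a single read is also listed as 0, multiples of the floor are not lower bounds of a fold change.

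The other 3 members of this leading group varied more between libraries. novel_circ_0000591 had 29, 13 and 12 reads in drought replicates 1, 2 and 3, a mean share of 0.217% ± 0.116 (SD, n = 3), 3.16 times the floor. novel_circ_0000145 had 15, 38 and 4 reads, a mean share of 0.184% ± 0.119 (SD, n = 3), 2.67 times the floor. novel_circ_0000853 had 25, 11 and 4 reads, a mean share of 0.150% ± 0.123 (SD, n = 3), 2.18 times the floor. All 3 were at 0 in each well-watered library. In each of them the library with the highest share differed from the one with the lowest by more than 3-fold, and the high library was drought replicate 1 for novel_circ_0000591 and novel_circ_0000853 but drought replicate 2 for novel_circ_0000145. In novel_circ_0000145 and novel_circ_0000853 the 4 reads of drought replicate 3 were a share of 0.0698%, below the floor of well-watered replicate 3 (0.0796%).

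The remaining 14 of the 18 fell into steady and uneven circRNAs. novel_circ_0000043 was among the steady ones, with 10, 9 and 6 reads in drought replicates 1, 2 and 3 and a mean share of 0.0980% ± 0.0226 (SD, n = 3). novel_circ_0000338 had 9, 10 and 4 reads, at 0.0852% ± 0.0179 (SD, n = 3). At lower abundance, novel_circ_0000552 had 5, 6 and 3 reads and novel_circ_0000165, with the fewest reads of the 18, had 3, 4 and 2. Scaled for depth, the last 2 had nearly equal shares in the 3 libraries, with a coefficient of variation of 9.18% for novel_circ_0000552 and 4.31% for novel_circ_0000165. With so few reads these low values lie below the counting error and do not establish a stable level.

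Uneven circRNAs rested largely on 1 library. novel_circ_0000749 had 24 reads in drought replicate 2, but 2 and 3 reads in drought replicates 1 and 3. novel_circ_0000207 had 12 reads in drought replicate 1, but 2 and 4 in drought replicates 2 and 3. novel_circ_0000507 had 18 reads in drought replicate 1, against 6 and 4 in the others. In the first 2 of these the highest share was 8.34 and 8.63 times the lowest. novel_circ_0000695 ran the other way, with 3 reads in drought replicate 1 and 9 in each of the others.

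The last 6 of the 18 had between 11 and 20 reads. novel_circ_0000283 had 6, 12 and 2 reads in drought replicates 1, 2 and 3, novel_circ_0000417 had 5, 10 and 2, and novel_circ_0000935 had 5, 8 and 2. These 3 had their highest share in drought replicate 2 and their lowest in drought replicate 3. novel_circ_0000689 had 2, 9 and 5 reads, novel_circ_0000360 had 5, 4 and 5, and novel_circ_0000626 had 6, 3 and 2. Over all 18, the coefficient of variation of the share between drought libraries had a median of 49.96%, from 4.31% to 102%. The highest share was in drought replicate 1 for 10 of the 18, in replicate 2 for 5 and in replicate 3 for 3.

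**Figure D1:**
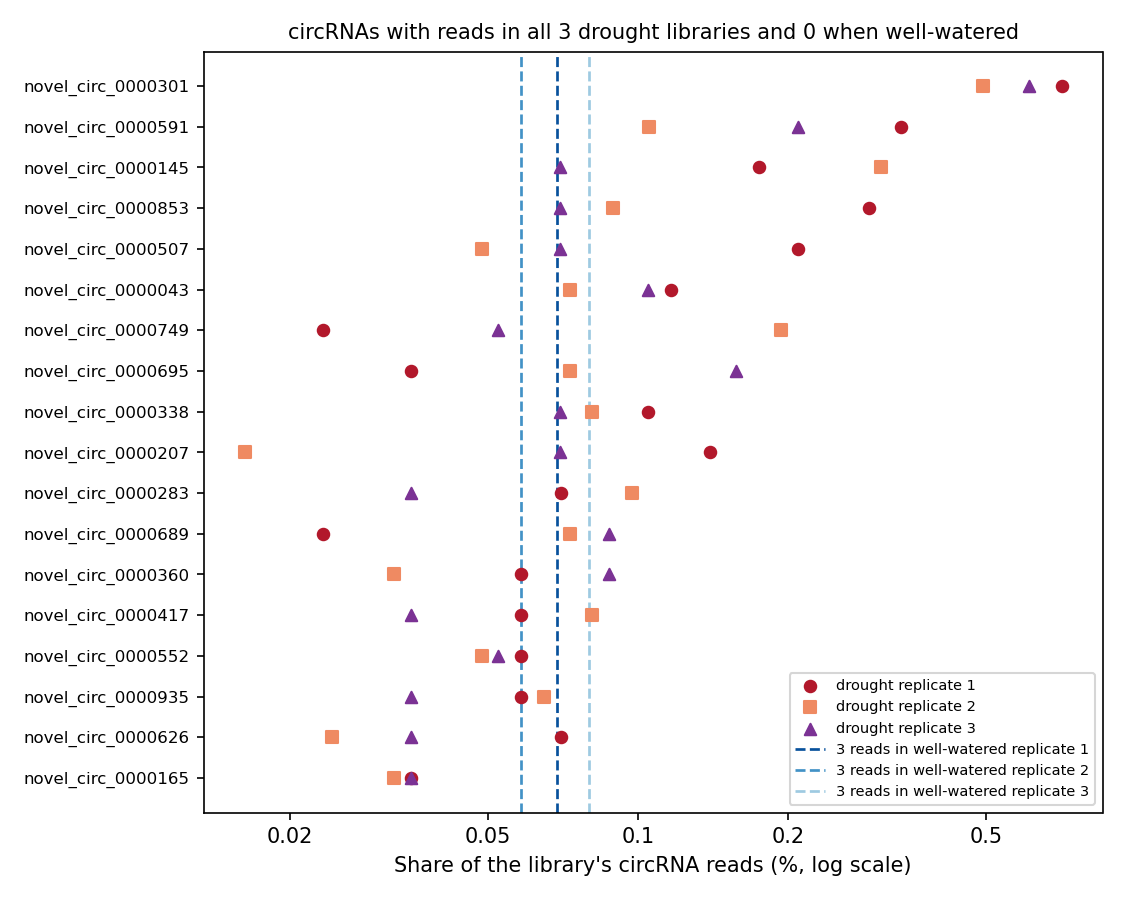
Shares of each library's circRNA reads (horizontal log axis, %) of the 18 circRNAs with reads in all 3 drought libraries, with 1 marker per drought library. The dashed lines mark the share that 3 reads stand for in each well-watered library (0.0580% to 0.0796%), where all 18 were listed at 0; the 3 markers of novel_circ_0000301 and novel_circ_0000591 lie to the right of all 3 lines.

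The other 81 of the 99 were listed in exactly 2 drought libraries. Replicates 1 and 2, the deeper ones, shared 37 of them, replicates 2 and 3 shared 27, and replicates 1 and 3 shared 17. In total, drought replicate 2 listed 82 of the 99 (82.8%), replicate 1 listed 72 (72.7%) and replicate 3 listed 62 (62.6%), which follows the order of depth. The most abundant of the 81 were novel_circ_0000821, with 0, 13 and 16 reads in drought replicates 1, 2 and 3, and novel_circ_0000741, with 0, 14 and 13. Both were thus absent from a library deeper than the shallowest one that listed them. novel_circ_0000415 had 11, 14 and 0 reads.

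Next in reads came novel_circ_0000461 with 0, 14 and 7 reads in drought replicates 1, 2 and 3, novel_circ_0000777 with 0, 19 and 2, and novel_circ_0000410 with 0, 12 and 7. novel_circ_0000025 had 0, 11 and 6 reads, again with none in replicate 1. For novel_circ_0000123 (10, 7 and 0 reads) and novel_circ_0000383 (4, 12 and 0) the library at 0 was replicate 3, the shallowest. novel_circ_0000050 had 8, 0 and 7 reads, with none in replicate 2, the deepest. Thus 6 of these 10 lacked reads in drought replicate 1, 3 in replicate 3 and 1 in replicate 2.

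The 0 listed in a single drought library was set against what the other 2 would give. For each of the 81, the mean share in the 2 libraries that listed it was multiplied by the depth of the third, which listed 0. At least 3 reads were expected there for 50 of the 81 (61.7%), and fewer than 2, the lowest count listed, for 12. The expected count had a median of 3.80 and was highest for novel_circ_0000821, at 16.5 reads in drought replicate 1. These expected counts are drawn upward by the choice of libraries that had reads, and a single read is also listed as 0. Taking circRNAs listed in exactly 2 drought libraries fixed the 0 in the third, so that 0 is not a finding. Of the circRNAs listed in exactly 2 drought libraries, 50 had well-watered reads. For 34 of these (68%), at least 3 reads were expected in the drought library at 0.

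The libraries also differed in how much they gave of a circRNA that they shared. For circRNAs of the 99 listed in both libraries of a pair, the 2 shares were within 2-fold of each other for 36 of 55 in replicates 1 and 2 (65.5%), 17 of 35 in replicates 1 and 3 (48.6%) and 23 of 45 in replicates 2 and 3 (51.1%). For circRNAs with well-watered reads these values were 68.4%, 64.5% and 67.3%. Spearman correlations of the shares over the same 99-member subsets were 0.26, 0.06 and 0.43, or 0.21, -0.03 and 0.38 without novel_circ_0000301. These are weak and, in counts this sparse, no finding. For circRNAs with well-watered reads they were 0.72, 0.67 and 0.72, but those reach higher abundance, and the difference was not tested. Pearson's chi-square of the drought counts against depth, per degree of freedom, was 2.24 for the 55 members with 4 to 10 drought reads, 4.28 for the 30 with 11 to 20 and 5.70 for the 14 with more. For circRNAs in the same ranges that were also listed in at least 2 drought libraries but had well-watered reads, it was 2.09 (29 circRNAs), 3.07 (37) and 3.75 (64 with 21 to 200 reads). All 6 values exceed what counting error alone gives, and the lack of listed single reads can add to them. The last range holds more abundant circRNAs in the second class, and the difference between the classes was not tested.

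Each drought library can be read as a check on the other 2, because a library left out of the rule is not used to choose. Of the 45 circRNAs with 0 well-watered reads and reads in drought replicates 2 and 3, 18 were also found in replicate 1 (40.0%, 95% exact binomial interval 25.7% to 55.7%). Leaving out replicate 2 gave 18 of 35 (51.4%, 34.0% to 68.6%), and leaving out replicate 3 gave 18 of 55 (32.7%, 20.7% to 46.7%). Such circRNAs thus returned in an unused drought library in 32.7% to 51.4% of cases. For circRNAs with well-watered reads the corresponding values were 86 of 101 (85.1%), 86 of 93 (92.5%) and 86 of 114 (75.4%). The 2 classes differ in abundance, and so they were also compared by the reads in the other 2 drought libraries. This does not match them fully, because the classes were chosen by their well-watered reads. At equal drought reads, choosing circRNAs with 0 well-watered reads can by itself favor rarer ones. The direction of the difference is therefore not a finding, and its cause was not tested.

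With 4 to 10 reads in those libraries, 7 of 25 circRNAs without well-watered reads were found in drought replicate 1 (28.0%), against 9 of 16 with them (56.2%). In replicate 2 the counts were 9 of 19 (47.4%) and 19 of 24 (79.2%), and in replicate 3 they were 3 of 29 (10.3%) and 11 of 25 (44.0%). With 11 to 20 reads the shares were 58.3%, 41.7% and 47.4% without well-watered reads, of 12, 12 and 19 circRNAs, and 82.1%, 93.1% and 65.7% with them, of 28, 29 and 35. With 21 or more reads they were 50%, 100% and 85.7% without well-watered reads, of 8, 4 and 7 circRNAs, and 94.7%, 100% and 96.3% with them, of 57, 40 and 54. The circRNAs without well-watered reads were thus found less often in 8 of the 9 comparisons and equally often in 1, replicate 2 at 21 or more reads. The intervals stayed apart in 2 of the 9, at 11 to 20 reads in replicate 2 (15.2% to 72.3% against 77.2% to 99.2%) and at 21 or more in replicate 1 (15.7% to 84.3% against 85.4% to 98.9%). The range of 21 or more reads has no upper limit and is not matched in abundance. Drought reads ran up to 157 among the 99 and up to 10522 among circRNAs found in all 6 libraries. These comparisons share libraries and circRNAs, so they are not independent of each other, and the ranges with few circRNAs have wide intervals.

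**Figure D2:**
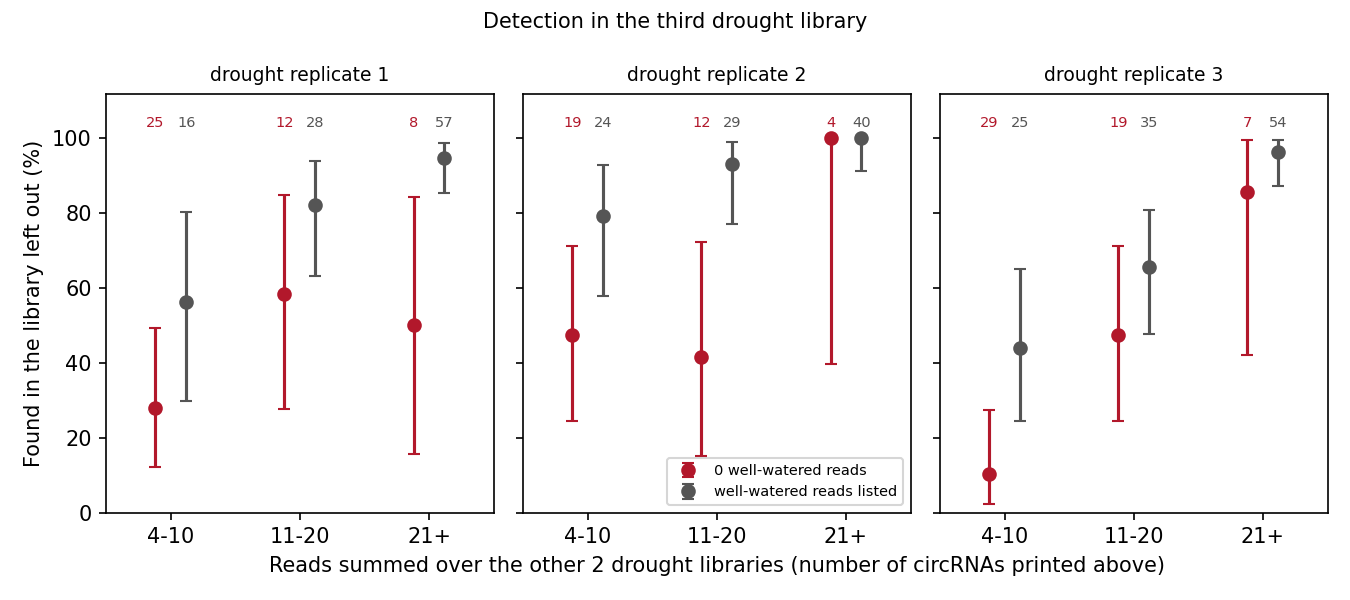
Percentage of circRNAs found in the drought library left out (vertical axis), by the reads summed over the other 2 drought libraries (horizontal axis), for circRNAs with 0 well-watered reads (red) and with well-watered reads (grey); bars are 95% exact binomial intervals for counting error only and the numbers of circRNAs stand above. The red points lie below the grey ones in 8 of the 9 pairs, for example 10.3% against 44.0% at 4 to 10 reads in replicate 3, and the bars overlap in all pairs but 2.

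How far the well-watered libraries could have shown these circRNAs was then calculated. In well-watered replicates 1, 2 and 3 a true count of 0 allows a share of up to 0.0689%, 0.0580% and 0.0796%, and because a single read is also listed as 0 the true limits are higher. The mean drought share exceeded the mean of these floors for 18 of the 99 (10 of them among those found in all 3 drought libraries), and it exceeded the highest floor for 12. For the other 81 the mean drought share was itself at or under the mean floor, and no multiple is given. In single libraries the comparison is stricter: 2 circRNAs, novel_circ_0000301 and novel_circ_0000591, were above the highest well-watered floor in every drought library. With library sizes adjusted by TMM factors, which adjust for differences in library composition, 32 exceeded the mean floor. novel_circ_0000301 then stood at 11.9 times the floor.

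The same limit can be stated in reads. If a circRNA had kept its mean drought share in well-watered leaves, the 99 together would have been expected to give 232, 275 and 201 reads in well-watered replicates 1, 2 and 3, where 0 were listed. Spread over 99 circRNAs this is little for each. The rule fixed the 0 reads listed, and choosing circRNAs for their reads under drought draws all these expected counts upward. Fewer than 3 reads were expected in every well-watered library for 73 of the 99 (56 with TMM-adjusted library sizes), and fewer than 2 in every one for 49. At least 3 were expected in all 3 libraries for 12, and 26 reached 3 in at least 1. Over the 3 well-watered libraries together the expected count had a median of 5.16, and it was under 3 for 18 and at least 3 for 81. For most of the 99, an absence from any 1 well-watered library was therefore not distinguishable from an unchanged share at this depth.

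The highest of these expected counts were those of novel_circ_0000301, at 26.4, 31.3 and 22.8 reads in well-watered replicates 1, 2 and 3. They exceed 16.5 reads, the highest count expected for any of the 81 in the drought library that listed it at 0. A zero at a still higher expected count did occur within the drought group. novel_circ_0000944, which is not one of the 99 because of 4 reads in well-watered replicate 3, had 0, 75 and 41 reads in drought replicates 1, 2 and 3, and 56.8 reads were expected in replicate 1. For novel_circ_0000591 the expected counts were 9.47, 11.2 and 8.20, for novel_circ_0000145 they were 8.02, 9.51 and 6.94, and for novel_circ_0000853 they were 6.54, 7.75 and 5.66. Counts of that size were also expected, and listed as 0, in single drought libraries. A zero in 1 drought library is not like zeros in all 3 well-watered libraries. Summed over the 3 well-watered libraries, the expected reads were 80.4 for novel_circ_0000301 and 28.9 for novel_circ_0000591. They were 24.5 for novel_circ_0000145 and 19.9 for novel_circ_0000853.

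**Figure D3:**
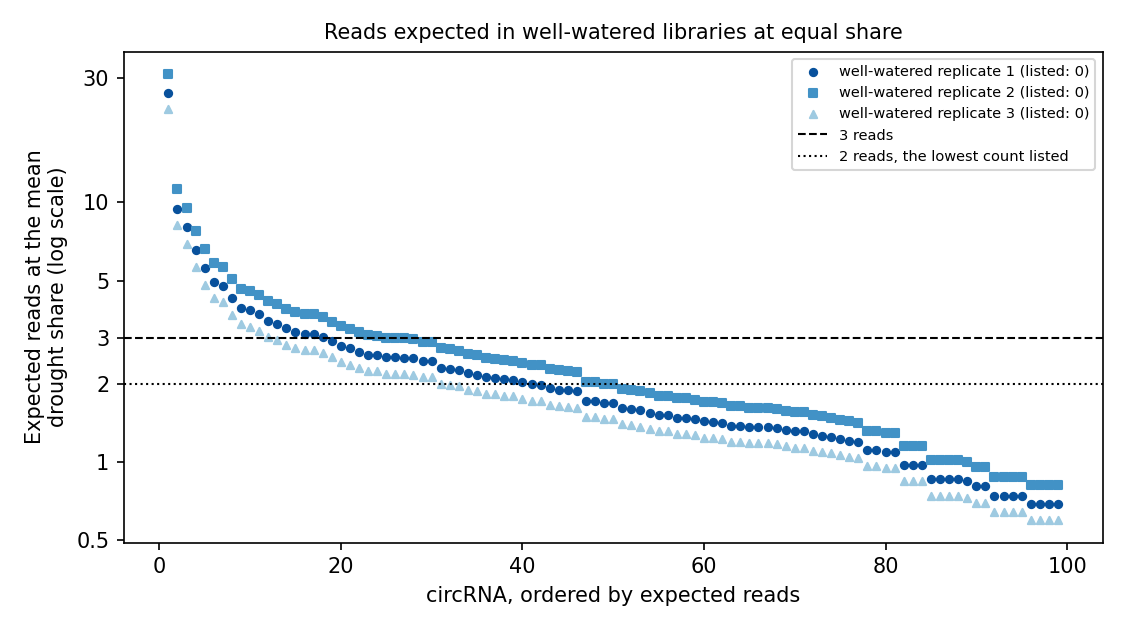
Reads expected in each well-watered library (vertical log axis) for the 99 circRNAs, ordered along the horizontal axis, if each had the mean share it had under drought; the listed count was 0 in every case. At its left end novel_circ_0000301 is expected at 22.8 to 31.3 reads, and 73 of the 99 lie below the dashed line at 3 reads in all 3 libraries.

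Depth also bears on presence under drought. At the depth of the shallowest well-watered library, 3770 reads, and with the listed minimum of 2 reads, 44.4 of the 99 would be expected to keep reads in at least 2 drought libraries. Of the 18 found in all 3 drought libraries, 15.0 would be expected to do so. The numbers expected to be listed at that depth were 45.8, 42.1 and 48.7 in drought replicates 1, 2 and 3, in place of 72, 82 and 62. At equal depth the replicates listed similar numbers, and the deepest one no longer listed the most. With all 6 libraries reduced to that depth and every listed circRNA counted, 46.2 circRNAs would be expected to meet the rule, of which 1.79 are not among the 99. Counting a single read as found, 78.2 of the 99 would keep reads in at least 2 drought libraries.

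Absence from well-watered leaves went with low abundance under drought, but this trend is not a finding. At these depths a circRNA with few drought reads can be missed in all 3 well-watered libraries by counting alone. A fall with rising drought reads, or with detection in more drought libraries, is therefore built in. Whether it exceeds counting error was not tested, and the intervals below only describe the percentages. Among the 235 circRNAs listed in at least 2 drought libraries, 99 (42.1%) had no well-watered reads. The share was 55 of 84 (65.5%, 95% exact binomial interval 54.3% to 75.5%) at 4 to 10 drought reads and 30 of 67 (44.8%, 32.6% to 57.4%) at 11 to 20. It was 11 of 47 (23.4%, 12.3% to 38.0%) at 21 to 50 and 3 of 37 (8.11%, 1.70% to 21.9%) at 51 or more. The 3 in the last range were novel_circ_0000301, novel_circ_0000145 and novel_circ_0000591. By detection, 18 of 104 circRNAs in all 3 drought libraries lacked well-watered reads (17.3%), against 81 of 131 in exactly 2 (61.8%).

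**Figure D4:**
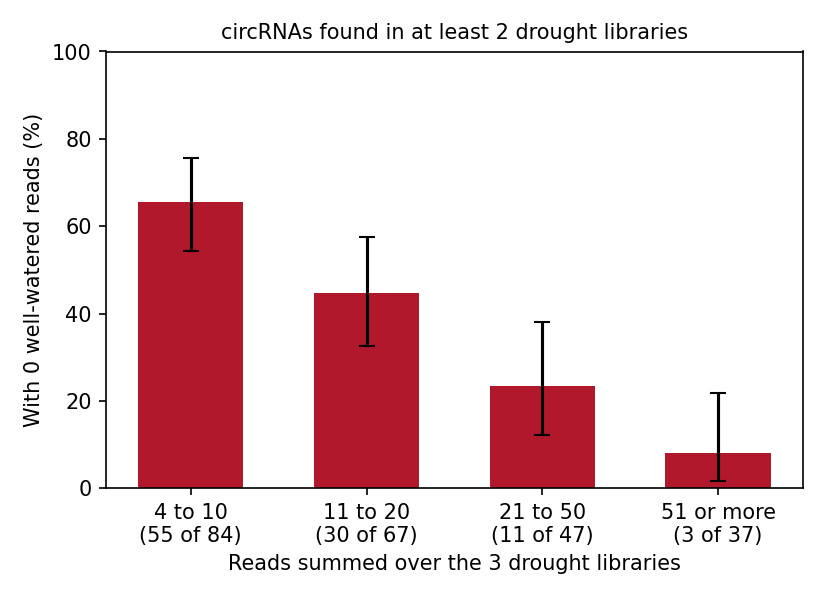
Percentage of circRNAs listed in at least 2 drought libraries that had 0 reads in all well-watered libraries (vertical axis), by reads summed over the drought libraries (horizontal axis, with counts of circRNAs); bars are 95% exact binomial intervals for counting error only. The percentage is 65.5% at 4 to 10 reads and 8.11% at 51 or more. Rarer circRNAs are missed more often by counting alone, so a fall of this kind is built in and is not a finding.

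Each well-watered library was likewise checked against the other 2. Of 125 circRNAs with reads in at least 2 drought libraries and 0 in well-watered replicates 2 and 3, 26 had reads in replicate 1 (20.8%, 95% exact binomial interval 14.1% to 29.0%). The corresponding values were 17 of 116 for replicate 2 (14.7%, 8.78% to 22.4%) and 18 of 117 for replicate 3 (15.4%, 9.38% to 23.2%). A further well-watered library thus removed about the same part of the candidates each time. Among circRNAs found in all 3 drought libraries, that part was 12 of 30 (40.0%), 10 of 28 (35.7%) and 7 of 25 (28.0%). The 61 circRNAs that missed the rule through 1 well-watered library had a median of 5 reads there and up to 17, and 6 of them had only 2.

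The edge of the rule was narrow. Just inside it, novel_circ_0000159, novel_circ_0000363, novel_circ_0000437 and novel_circ_0000835 had 2 reads in each of 2 drought libraries and none in the third. Just outside, novel_circ_0000249 had 9, 6 and 11 reads in drought replicates 1, 2 and 3 and 2 reads in well-watered replicate 1. novel_circ_0000890 had 10, 10 and 0 reads under drought and 2 in well-watered replicate 1. novel_circ_0000208 had 4, 2 and 10 reads under drought and 2 in well-watered replicate 2. These 3 stayed out because of 2 reads, the lowest count listed. They had more reads under drought than most of the 99, but this follows from how they were picked. They had the most drought reads of the 6 circRNAs listed in at least 2 drought libraries with 2 well-watered reads.

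On the drought side of the edge were 249 circRNAs with reads in 1 drought library and none in well-watered leaves. The most abundant, novel_circ_0000076, had 13 reads in drought replicate 2. novel_circ_0000093 and novel_circ_0000458 had 10 each, also in drought replicate 2, and the median of the 249 was 4 reads. The reverse rule, reads in at least 2 well-watered libraries and in no drought library, was met by 4 circRNAs. These were novel_circ_0000390, novel_circ_0000464, novel_circ_0000536 and novel_circ_0000678, with 6 to 12 well-watered reads each. The deeper drought libraries make the 2 rules unequal in what they can detect.

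In the test of drought against well-watered leaves over all circRNAs with at least 10 reads, 56 of the 99 were tested and 43 had too few reads. An adjusted p under 0.05 was reached by 4 of the 56, all higher under drought, against 2.86% of all 210 circRNAs tested that were higher at that threshold (edgeR's quasi-likelihood test, Benjamini-Hochberg). The 4 were the leading novel_circ_0000301, novel_circ_0000591, novel_circ_0000145 and novel_circ_0000853. The rule had already used this contrast, and a member had to have its reads under drought to pass the filter, so the count supports nothing about the 99. Without drought replicates 1, 2 and 3 the number was 0, 1 and 1 (edgeR). In the fit without replicate 1, 26 of the 28 members still tested had an unadjusted p under 0.05, against 17.3% of all circRNAs in that fit that were higher at that threshold. Those 26 are among the 30 circRNAs that make up the 17.3%. Without replicates 2 and 3 the members were 18 of 25 and 30 of 38, against 20 of 157 and 36 of 181 circRNAs. The rule and the filter act on these p-values too (edgeR), so they support nothing about the 99. No other tool was run on 5 libraries.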

How the data were processed

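Total RNA from leaves was made into circRNA libraries with a directional Illumina kit, per the labels' protocols. The authors deposited a read count and a TPM value for each circRNA and library; the counts are whole numbers, not normalized. Per the file headers the second unit is TPM, but within a library each deposited TPM is the count divided by 1 constant, with no length term. The aligner, circRNA caller, genome build and filter are not given in the sources used here; the submitters' processing notes name DESeq 1.24.0. None of the 99 names matched RefSeq's gene table (0 matches).

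The circRNAs described, and the named ones, were chosen with earlier results of these data known. Named are those in all 3 drought libraries, the 10 next by drought reads, those past an adjusted p of 0.05, and those nearest the rule. Just outside the rule, the 3 with the most drought reads were named on each side. Shares are counts over the library's count sum. Expected reads are a mean drought share times a library's sum. Numbers at equal depth are exact hypergeometric expectations. Binomial intervals are Clopper-Pearson (SciPy 1.17.1). Intervals and the floor of 3 reads hold for counting error alone: the libraries carried no molecular identifiers that the labels name, so copies of 1 molecule may be counted more than once. circRNAs are not replicates of a condition.

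Counts were tested with edgeR 4.0.16 in R 4.3.3 (quasi-likelihood, TMM, at least 10 reads over 6 libraries, Benjamini-Hochberg). The test was also run on simulated counts with a fixed spread between libraries and changes in both directions. That run does not show how the test performs on these counts. Alternatives were DESeq2 1.42.0, limma 3.58.1 on log2(TPM + 1), other scalings and filters, a replicate block and each library left out. The labels do not say whether libraries came from separate plants, so p-values measure only the spread between these samples. The labels name no batch.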

Additional observations from a re-analysis of the deposited data

How the results depend on the processing

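The number of circRNAs meeting the rule was 99. It was 75 with at least 3 reads and 32 with at least 5 reads required in a drought library, 18 when all 3 drought libraries were required, and 105 with up to 2 well-watered reads allowed. Leaving out 1 library gave 35 to 125. These changes follow from the rule's construction. The joint drought share of 5.33% was 3.81% of the totals implied by the deposited TPM and 18.0% of the reads without the 3 most abundant circRNAs. It was 5.19% to 5.59% without 1 drought library. The 73 circRNAs expected below 3 reads in each well-watered library became 18 for the sum of the 3 libraries, a setting chosen after seeing the data, and 56 to 80 in the other settings with all libraries. The 44.4 expected at equal depth became 78.2 with a minimum of 1 read, 46.2 with TPM totals, and 46.2 with all 6 libraries thinned and every listed circRNA counted, also chosen after seeing the data. They became 19.2 to 21.3 without 1 drought library, since both remaining libraries were then required.

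The 4 members past an adjusted p of 0.05 (edgeR) became 1 with filterByExpr, where 1 member was tested, 1 with DESeq2 and 17 with limma on log2(TPM + 1); for the last 2 the cause was not tested. Leaving out 1 library gave 0 to 3. Of the 28 members named, 27 were tested. None changed direction in any of 304 fits, which the 0 well-watered reads fix, and 13 more passed, each with limma. The 4 members failed to pass in 19 fits. Among the alternative settings that tested it, novel_circ_0000301 passed in 12 of 13. novel_circ_0000591 and novel_circ_0000145 passed in 8 of 12 each, and novel_circ_0000853 in 2 of 12. With the replicate block 3 members passed, and 6 circRNAs in all in place of 8. Whether the numbers pair the libraries cannot be told from these counts: same-numbered deviations correlated at only 0.08, -0.02 and 0.03. Drought replicates 1 and 3 were closest to the well-watered library of the same number. Drought replicate 2 was closest to well-watered replicate 3 (0.05). The median log2 fold change of all circRNAs tested was 0.99 with TMM and 0.63 with library totals, where 3 members passed.

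Depth limits all absences: a count of 0 allows 3 reads, and a single read is listed as 0.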
